A study of Mus musculus with 20 samples.

Results

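The clustered replication-dependent histone genes were examined in RNA-seq libraries of MB49, a mouse bladder cancer cell line, in versions with and without the Y chromosome. The members were all protein-coding genes whose symbol starts with Hist1h, Hist2h, Hist3h or Hist4h, which gave 57 of the 28025 genes listed in the tumor tables. The cell line tables listed 14701 genes and held 41 of the 57 by gene identifier. The other 16 were not listed there, and they had between 9 and 128 reads each over the 10 tumor libraries. The 57 members comprised 4 genes for the linker histone H1, 14 for H2A, 16 for H2B, 10 for H3 and 13 for H4. Of these, 50 lie in the Hist1 cluster on chromosome 13, 4 in Hist2 on chromosome 3, 2 in Hist3 on chromosome 11 and 1 in Hist4 on chromosome 6.

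There were 4 groups of 5 libraries. Y-negative MB49 cells (libraries BN2, BN3, BN6, BN9 and BN10) and Y-positive MB49 cells (MB8, MB11, MB17, MB19 and MB34) were cultured in DMEM with 10% fetal bovine serum. The tumor libraries were MN11 to MN15 for Y-negative and MP6 to MP10 for Y-positive cells. These tumors grew under the skin of wild-type C57BL/6 male mice, so that host cells in a tumor of either kind carry a Y chromosome; the age of the mice is not given in the sources used here. The labels do not say whether the libraries of a group are separate clones, cultures or animals, so the p-values measure only the spread between these libraries, which may be technical. Library totals ran from 14557118 to 21180885 reads. The Y-linked genes Kdm5d and Uty had at most 0.0521 CPM (reads of a gene per 1000000 reads of the library) in the Y-negative cultures and at least 6.02 CPM in the Y-positive cultures. In the Y-negative tumors they had 2.38 to 4.76 CPM and in the Y-positive tumors 9.26 to 32.0 CPM. The MB49 libraries held Krt8 and Krt18, keratins of simple and luminal epithelium, at 344 CPM or more each. Other markers of the bladder lining, the urothelium, were mixed. Gata3, a transcription factor of that lining, had 14 to 36.1 CPM in the cultures and 2.28 to 9.53 CPM in the tumors. The basal keratin gene Krt14 had 2.96 CPM or less in the cultures and 18.8 to 143 CPM in the tumors. The uroplakin gene Upk1a stayed at or below 2.04 CPM in all 20 libraries, and Upk1b and Upk2, listed in the tumors only, at or below 0.323 CPM.

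Histones are the proteins around which DNA is wound: pairs of H2A, H2B, H3 and H4 form the nucleosome core, and H1 binds the linker DNA between cores. Replication-dependent histone genes lie in clusters, lack introns in most cases and are transcribed mainly in S phase, when newly copied DNA needs to be packaged. Their mRNAs are the best known metazoan mRNAs that end in a conserved stem-loop instead of a poly(A) tail. The stem-loop is bound by the stem-loop binding protein SLBP, and the RNA is cut a few bases downstream by a complex that contains U7 snRNA. Some of these genes can also give a longer, polyadenylated transcript from a downstream poly(A) signal, mostly in cells that have left the cell cycle. Per the labels' protocols, a SMARTer kit for mRNA was used for library construction; whether RNA without a poly(A) tail was captured less well was not tested.

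The annotated 3′ end was the first property that the choice of members did not use. In the GENCODE vM21 annotation of GRCm38, 41 of the 57 members had the histone stem-loop after the stop codon, against 6 of 21894 other protein-coding genes (0.0274%), 5 of which also carry a histone symbol. The loop was found by a fixed sequence pattern, so a loop of another sequence is missed. Members were searched in their longest coding transcript, and the other genes anywhere in any transcript. The loop began between 21 and 54 bases after the stop codon, with a median of 31. It occurred in 8 versions, of which the most frequent was shared by 22 members. The stem-loops of the members on which the results below turn are printed here, with the stem-loop in capitals and 5 flanking bases on either side in lower case. Those of Hist1h2bj, Hist1h2bm, Hist1h1c and Hist3h2a are the version found in 22 members, those of Hist1h2bk and Hist1h3c a version found in 5, that of Hist1h4c one found in 7 and that of Hist1h4i one found in 2.
Hist1h2bj, chr13:22043638-22043653, plus strand: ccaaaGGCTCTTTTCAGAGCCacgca
Hist1h2bk, chr13:22036300-22036315, plus strand: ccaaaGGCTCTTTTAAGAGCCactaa
Hist1h2bm, chr13:21722506-21722521, plus strand: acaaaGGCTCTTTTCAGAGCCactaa
Hist1h3c, chr13:23745047-23745062, minus strand: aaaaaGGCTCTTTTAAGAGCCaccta
Hist1h4c, chr13:23698089-23698104, minus strand: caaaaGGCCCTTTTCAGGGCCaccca
Hist1h4i, chr13:22040966-22040981, minus strand: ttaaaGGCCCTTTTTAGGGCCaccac
Hist1h1c, chr13:23739512-23739527, plus strand: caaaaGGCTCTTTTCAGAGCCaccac
Hist3h2a, chr11:58955172-58955187, plus strand: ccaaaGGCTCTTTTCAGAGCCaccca

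What follows the loop differed. In 20 members the annotated transcript ended within 100 bases of the stem-loop (3 to 74 bases after it), and these are called stem-loop-ending members. In 21 it went on for 108 to 4884 bases, with a median of 752. In 11 the annotation stopped at the coding sequence, so that the files' gene model holds no stem-loop, and 5 H2B members had a longer end without a match to the loop pattern. The hexamer AATAAA or ATTAAA, the poly(A) signal, was within the last 50 bases in 10 of the 21 members that go on past the loop and in 1 of the 20 stem-loop-ending members. It was present in 3 of the 5 H2B members with a longer end and in none of the 11 that stop at the coding sequence. Among other protein-coding genes 80.8% had it in the last 50 bases of at least 1 transcript. The signals of 4 of the most abundant members are printed here, with the hexamer in capitals.
Hist1h1c, chr13:23740342-23740347, plus strand: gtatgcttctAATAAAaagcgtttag
Hist1h4i, chr13:22040651-22040656, minus strand: ttctgtttacATTAAAagtattctat
Hist2h2be, chr3:96223717-96223722, plus strand: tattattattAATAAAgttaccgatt
Hist3h2a, chr11:58956797-58956802, plus strand: gtatatgcccAATAAAataagagtac
These matches are descriptions of the annotated sequence; which end the transcripts in these libraries used was not measured.

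Histone reads were scarce. The members took 0.0128% to 0.0334% of the reads of a culture (36136 reads over 10 libraries) and 0.0122% to 0.0221% of the reads of a tumor (29049 reads). Only 6 of the 41 listed members averaged at least 5 CPM in the cultures, and 26 averaged under 1 CPM; in the tumors these counts were 6 and 35 of 57. A gene with no read in a library can have had up to 0.142 to 0.206 CPM there, by a floor of 3 reads that covers counting error only. A single gene, Hist1h1c, held 51.9% of all member reads in the cultures and 26% in the tumors. Hist2h2be followed with 11.7% and 13.3%, Hist1h2bc with 10.1% and 12.4%, and Hist1h4i with 5.58% and 12%. Members with a long annotated end, with or without the loop, thus made up most of the histone reads: the 21 that go on past the loop held 69.4% of member reads in the cultures and 51.7% in the tumors, and the 20 stem-loop-ending members held 6.70% and 16.2%. In the cultures 18 of the 21 and 12 of the 20 were listed.

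The summed level of all listed members in the Y-negative cultures was 139 CPM in BN2, 128 in BN3, 192 in BN6, 229 in BN9 and 318 in BN10. In the Y-positive cultures it was 156 CPM in MB8, 159 in MB11, 240 in MB17, 334 in MB19 and 137 in MB34. The spread within each genotype was thus wider than the gap between the genotype means of 201 ± 76.9 and 205 ± 82.1 CPM (SD, n = 5 each). The Y-negative tumors had 131 CPM in MN11, 182 in MN12, 141 in MN13, 122 in MN14 and 166 in MN15. The Y-positive tumors had 155 CPM in MP6, 151 in MP7, 176 in MP8, 221 in MP9 and 151 in MP10. The tumors varied less than the cultures, with means of 149 ± 24.8 and 171 ± 30 CPM, and all 4 groups overlapped.

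**Figure D1:**
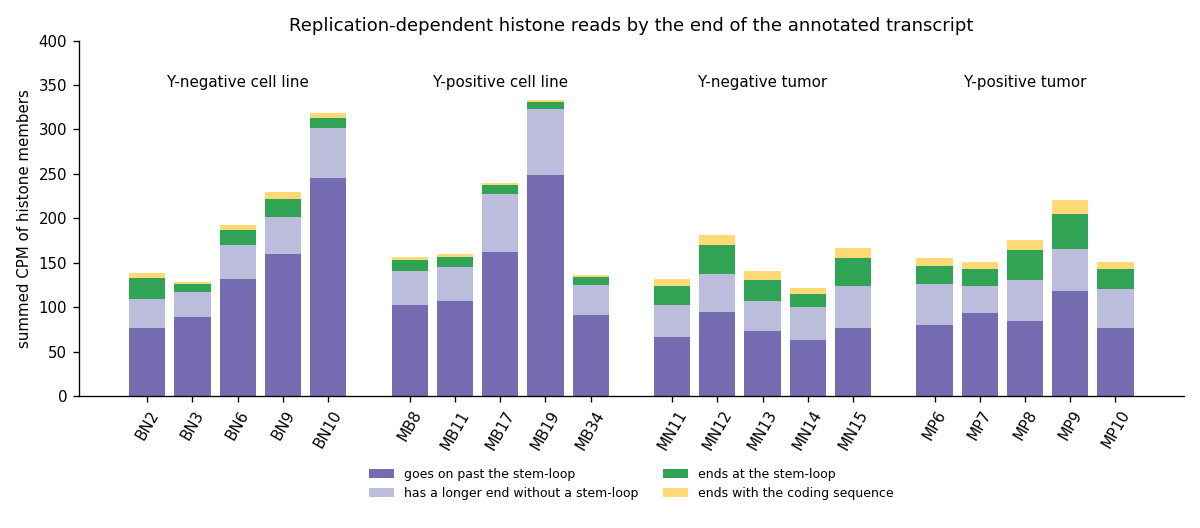
Summed CPM of the histone members in each of the 20 libraries (bars, from 0), split by how the annotated transcript ends. BN10 and MB19 are the highest, at 318 and 334 CPM, through members that go on past the stem-loop (246 and 249 CPM), whereas the stem-loop-ending part is largest in MP9, at 38.7 CPM.

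H1 members bind linker DNA. Hist1h1c (ENSMUSG00000036181, chr13:23738808-23740367, 1 exon) had 39.7 CPM in BN2, 63.7 in BN3, 94.8 in BN6, 105 in BN9 and 211 in BN10, and 69.8 in MB8, 77.5 in MB11, 126 in MB17, 215 in MB19 and 64.2 in MB34. BN10 and MB19 stood far above the other cultures of their genotype, BN2 lowest. In the tumors Hist1h1c had 27.7, 52.1, 40.7, 37.2 and 34.1 CPM in MN11 to MN15 and 42.3, 40.7, 41.8, 55.8 and 41.0 CPM in MP6 to MP10. Every Y-positive tumor lay below every Y-positive culture; in the Y-negative libraries MN12 and MN13 lay above BN2 and the other tumors below all cultures. Per kilobase of gene model its mean was 65.9 and 70.9 CPM in the cultures and 24.6 and 28.4 CPM in the tumors, Y-negative first. The other H1 members were low: Hist1h1e averaged 1.04 CPM per kilobase or less in each group, and Hist1h1b 0.304 to 1.56.

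H2A members pair with H2B in the core. Hist3h2a (ENSMUSG00000078851, chr11:58954685-58956830), of the small Hist3 cluster, had 4.01, 8.0, 3.60, 16.4 and 4.51 CPM in BN2, BN3, BN6, BN9 and BN10 and 9.49, 6.60, 12.1, 10.6 and 8.36 CPM in MB8, MB11, MB17, MB19 and MB34. It had 3.90, 3.30, 5.48, 3.97 and 4.14 CPM in MN11 to MN15 and 3.19, 4.27, 2.53, 5.02 and 3.49 CPM in MP6 to MP10, so that all Y-positive tumors were below all Y-positive cultures. It overlaps another gene, Trim17, on the same strand. Hist1h2ae, the other leading H2A member, ranged from 1.5 to 6.15 CPM in the Y-negative cultures, 0.550 to 2.75 in the Y-positive cultures, 1.53 to 3.76 in the Y-negative tumors and 1.98 to 6.22 in the Y-positive tumors, and all 4 ranges overlapped.

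H2B members form the other part of that pair. Hist2h2be (ENSMUSG00000068854, chr3:96221119-96223738) averaged 20.1 ± 7.66 CPM in the Y-negative cultures, 27.4 ± 8.77 in the Y-positive cultures, 22.5 ± 2.92 in the Y-negative tumors and 20.1 ± 4.19 in the Y-positive tumors (SD, n = 5). Its lowest value was 9.46 CPM, in BN10, the Y-negative culture in which the summed members were highest. Hist1h2bc (ENSMUSG00000018102, chr13:23684199-23692908) had 11.5 to 13.5 CPM in 4 Y-negative cultures and 46.7 CPM in BN10. In the Y-positive cultures it had 12.2, 14.4, 29.1, 37.8 and 17.8 CPM, and over the tumors 12.9 to 28.4. Hist1h2bj (ENSMUSG00000069300, chr13:22043214-22043676), the most abundant stem-loop-ending member in the tumors, had 3.86, 1.73, 3.55, 3.49 and 2.12 CPM in BN2, BN3, BN6, BN9 and BN10 and 2.04, 0.624, 1.58, 1.58 and 0.771 CPM in MB8, MB11, MB17, MB19 and MB34. It had 4.78, 9.07, 7.08, 3.63 and 8.28 CPM in MN11 to MN15 and 4.73, 6.70, 9.15, 11.5 and 3.49 CPM in MP6 to MP10. All Y-positive tumors exceeded all Y-positive cultures, while among the Y-negative libraries MN14 lay below BN2.

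H3 and H4 members form the central tetramer of the nucleosome. Hist1h4i (ENSMUSG00000060639, chr13:22040636-22041362) led these families with 15.2, 8.58, 13.6, 18.2 and 9.85 CPM in BN2, BN3, BN6, BN9 and BN10 and 11.9, 7.23, 8.41, 7.21 and 9.78 CPM in MB8, MB11, MB17, MB19 and MB34. It had 15.6, 21.2, 12, 9.36 and 20.7 CPM in MN11 to MN15 and 18.9, 27.9, 20.8, 30.7 and 15.9 CPM in MP6 to MP10. Per kilobase of gene model it averaged 18.0, 12.2, 21.7 and 31.4 CPM in the Y-negative cultures, Y-positive cultures, Y-negative tumors and Y-positive tumors. On this scale it was above Hist1h1c in the Y-positive tumors, by less than the spread between libraries, and below it in both culture groups. Hist1h3c, the leading H3 member, averaged 6.17 ± 3.68, 4.72 ± 0.811, 4.53 ± 2.26 and 6.32 ± 2.02 CPM in the same order of groups, with overlapping ranges. Hist1h4c, the next H4 member, ranged from 1.05 to 3.25, 0.701 to 1.86, 1.32 to 2.97 and 1.02 to 6.05 CPM.

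**Figure D2:**
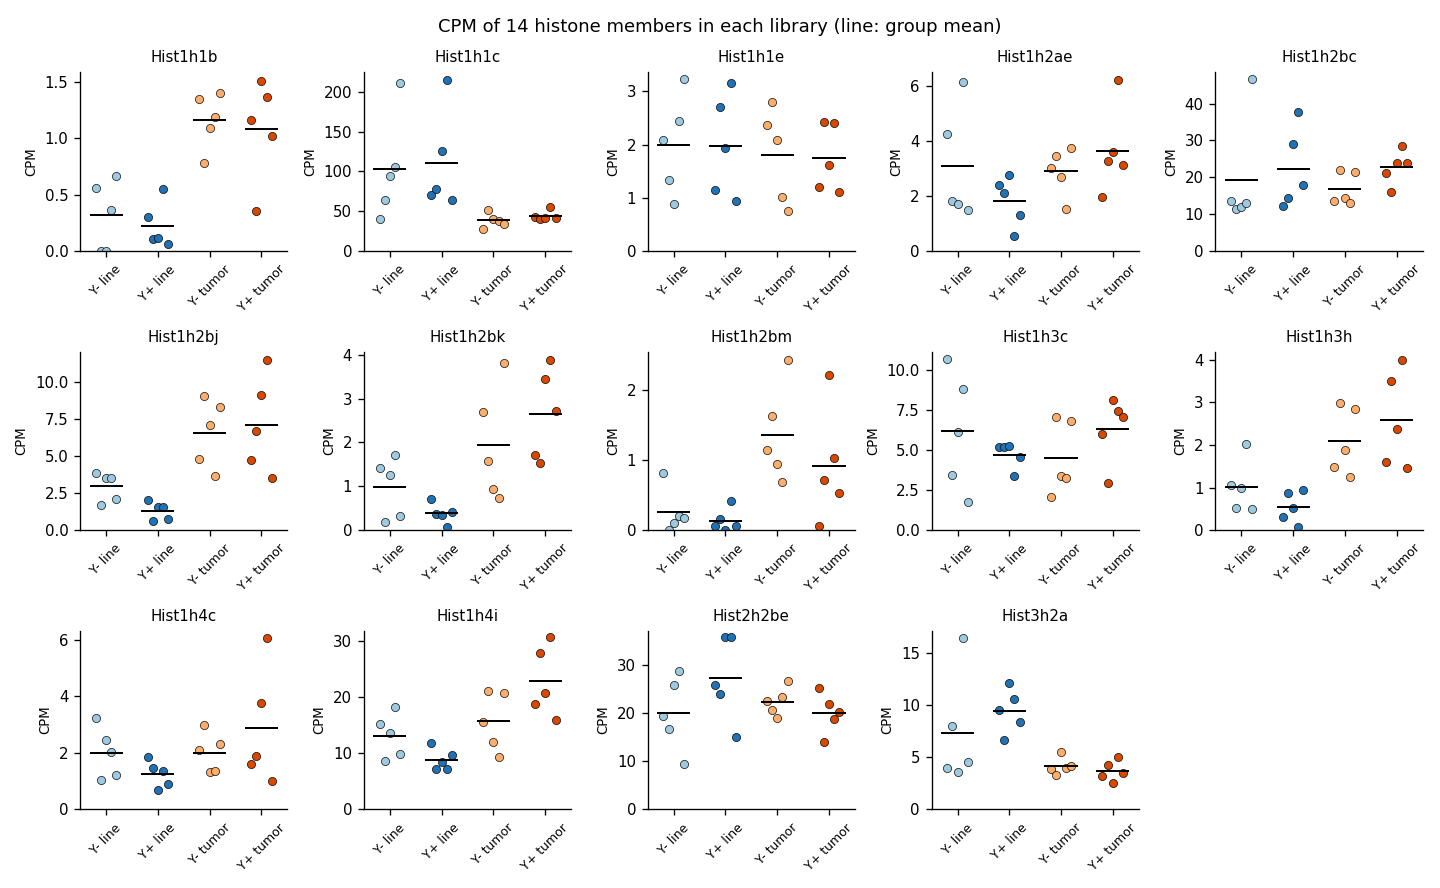
CPM of 14 members in each library (points, linear axes from 0) with the group mean (line), for Y-negative and Y-positive cell lines and tumors. Hist1h1c is spread from 39.7 to 215 CPM in the cultures and from 27.7 to 55.8 CPM in the tumors, whereas Hist1h2bj and Hist1h4i are highest in MP9, a Y-positive tumor.

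The series was designed to compare Y-negative with Y-positive MB49 cells. In culture no member was called different between the genotypes. Of the 57 members 23 had enough reads to be tested in the cultures, and 0 of these passed an adjusted p of 0.05 in edgeR's quasi-likelihood test; over all genes edgeR called 0.0321%. An unadjusted p under 0.05 was found for 3 of the 23 (13%), against 16.9% of all genes. DESeq2 called 1 of the 23 (4.35%), Hist1h2ai, against 3.79% of all genes. The median log2 difference, Y-negative minus Y-positive, was 0.34 over the 23 tested members and 0.02 over all genes, with 15 members positive and 8 negative.

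The H2A member Hist1h2ai came closest, with 1.52, 0.671, 1.77, 1.30 and 0.835 CPM in the Y-negative cultures against 0.360, 0.312, 0.526, 0.275 and 0.178 CPM in the Y-positive cultures. It was the only tested member whose 2 groups did not overlap, a pattern seen in 3.82% of all genes tested. Its log2 difference was 1.81 ± 0.43 (SE), with an adjusted p of 0.102 in edgeR's test. Its reads are hard to place, since 88.4% of the 100-base windows of its transcript occur in another gene as well, and its gene model stops at the coding sequence. The most abundant members showed log2 differences of −0.18 ± 0.43 for Hist1h1c, −0.50 ± 0.30 for Hist2h2be, −0.29 ± 0.43 for Hist1h2bc and 0.51 ± 0.24 for Hist1h4i, all with adjusted p of 0.298 or more in edgeR's test. Intervals this wide leave room for differences in either direction for the first 3. For Hist1h4i the unadjusted p was 0.0521 in edgeR's test, so no difference is not excluded either.

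In the tumors no member was called either. Of 35 tested members 0 passed the adjusted threshold in edgeR's test, against 2.45% of all genes. None of the 35 had an unadjusted p under 0.05 there, against 22.7% of all genes, and DESeq2 called 0 of the 34 for which it gave an adjusted p, against 9.19%. The median log2 difference, Y-negative minus Y-positive, was −0.12 over the tested members and −0.01 over all genes, with 14 positive and 21 negative. The H3 member Hist1h3i was the only one with groups apart, at 0.942, 1.18, 1.65, 0.965 and 1.13 CPM in MN11 to MN15 and 0.881, 0.475, 0.753, 0.342 and 0.920 CPM in MP6 to MP10; 5.45% of all genes tested were apart in this way. Its log2 difference was 0.79 ± 0.38 (SE), with an adjusted p of 0.239 in edgeR's test, and 68.6% of its windows occur in another gene. Hist1h4i differed by −0.53 ± 0.27, Hist1h2bc by −0.43 ± 0.22, Hist1h1c by −0.21 ± 0.18 and Hist2h2be by 0.16 ± 0.17 on the log2 scale.

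The Y-negative tumors were not uniform. Long genes took a larger share of reads in MN11, MN13 and MN14 (slopes of log2 CPM on log2 gene length, relative to the mean of the 10 tumors, of 0.145, 0.153 and 0.181) than in MN12 and MN15 (−0.098 and −0.087), and most histone members are short. The stem-loop-ending members summed to 22.3, 23.1 and 14.2 CPM in MN11, MN13 and MN14 and to 31.9 and 31.2 CPM in MN12 and MN15. Among the Y-positive tumors the slopes were 0.067 in MP6, −0.024 in MP7, −0.114 in MP8, −0.202 in MP9 and −0.021 in MP10, and the same members summed to 20.4, 19.3, 33.8, 38.7 and 22.7 CPM. The 4 tumors with the most negative slopes thus had the 4 highest stem-loop-ending sums. With the length trend removed, 0 of the 35 members were called, as before, but the median log2 difference turned from −0.12 to 0.12. Without MN12 and MN15, Hist1h2bc, Hist1h3c and Hist1h4i were called lower in the Y-negative tumors, so the count of 0 depends on those libraries. These 3 are 7.69% of the 39 members tested in that fit, against 12.2% of all genes called lower there.

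**Figure D3:**
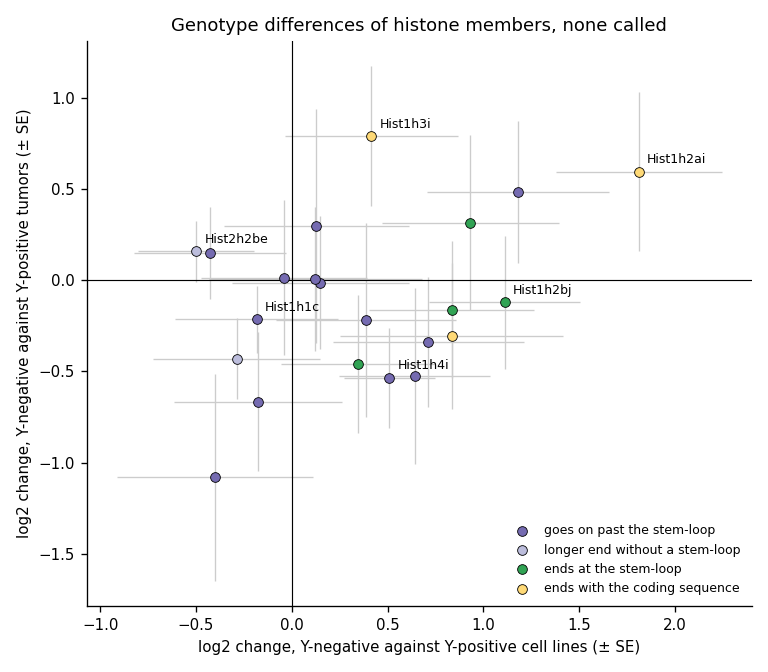
Log2 difference between Y-negative and Y-positive libraries (± SE) in the cell lines (x axis) and in the tumors (y axis) for the 22 members tested in each, coloured by the end of the annotated transcript. None was called in either comparison; Hist1h2ai is farthest to the right at 1.81 and Hist1h3i is the highest at 0.79.

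Tumors were then compared with cultures of the same genotype, in 1 model of all 20 libraries that tested 35 of the 41 members listed in both kinds of table. A tumor also holds host cells, and in such bulk samples more histone RNA per cell and more dividing cells cannot be told apart. In the Y-positive libraries 11 members rose, 3 fell and 21 did not pass. The 11 are 31.4% of the members tested, against 31.7% of all genes called higher, and the 3 are 8.57%, against 30.1% of all genes called lower. A share of higher calls near that of all genes is not a result about histone genes. In the Y-negative libraries 3 members rose and 2 fell, which is 8.57% and 5.71% of the members tested, against 28.1% and 27.9% of all genes. All 5 of these were also among the 14 called in the Y-positive libraries, in the same direction. Of the 3 that rose, Hist1h1b and Hist1h2bm had too few reads to be tested in the cultures alone. The shared direction is therefore given as a description. The median log2 change of the tested members was 0.73 in the Y-positive and 0.08 in the Y-negative libraries, and that of all genes 0.02 in each.

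The 3 members called lower have long annotated ends, but so do many that were not called. Of the 35 tested members 16 go on past the loop and 2 are H2B members with a longer end. Without MN12 and MN15, Hist1h3c and Hist1h2bn, which have short annotated ends, were called lower in the Y-negative libraries. Nothing is therefore read from the ends of the members that fell. Hist1h1c fell by 1.49 ± 0.36 on the log2 scale (SE, adjusted p = 0.00103 in edgeR's test) in the Y-positive libraries and by 1.56 ± 0.36 (adjusted p = 0.000839) in the Y-negative libraries. Hist3h2a fell by 1.51 ± 0.35 (adjusted p = 0.000793) and 0.98 ± 0.35 (adjusted p = 0.0203) in edgeR's test; the Y-negative call was lost in 4 of 17 alternatives, namely without BN9, without MN12 and MN15, without MN11, MN13 and MN14, and in limma-voom. Hist2h2be fell in the Y-positive libraries by 0.61 ± 0.26 (adjusted p = 0.0427 in edgeR's test), a call lost when MB17, MB19, MP7, MP8, MP9 or MP10 was left out and in limma-voom, and its value in the Y-negative libraries was 0.00 ± 0.25. Hist1h2bc, whose annotated end held no match to the loop pattern, differed by −0.15 ± 0.37 and −0.33 ± 0.37 and was not called.

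The calls are given here by annotated end, as a description. Of the stem-loop-ending members 11 were tested in the Y-positive libraries: 4 rose, 0 fell, and the median log2 change was 1.11. Of the members that stop at the coding sequence 4 of 6 rose, with a median of 1.91. Of those that go on past the loop 3 of 16 rose and 2 fell, with a median of 0.06, and of the 2 tested H2B members with a longer end 0 rose and 1 fell. In the Y-negative libraries the same 4 classes had 2 of 11, 1 of 6, 0 of 16 and 0 of 2 members called higher, with 2 called lower, both in the class that goes on past the loop, and medians of 0.84, 0.73, −0.20 and −0.17. These counts and medians are over members that passed the filter on low reads, and a member nearly absent from the cultures passed it through the tumors: 6 of the 11 that rose in the Y-positive libraries (Hist1h1b, Hist1h2ag, Hist1h2be, Hist1h2bk, Hist1h2bm and Hist1h4k) had too few reads to be tested in the cultures alone. Of these 6, 5 have a short annotated end, at the stem-loop or the coding sequence, whereas among the 5 that were testable in the cultures it was 3, with Hist1h4c and Hist1h4i going on past the loop. The members that the filter kept through the tumors mostly have short ends, whether they rose or not. In the cultures alone 4 stem-loop-ending members and 3 that stop at the coding sequence were tested, against 11 and 6 here. Nothing is therefore read from the share of short ends among the members that rose.

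The 5 that rose and were also testable in the cultures alone were Hist1h2bj, Hist1h4i, Hist1h2ai, Hist1h3h and Hist1h4c. Hist1h2bj rose by 2.29 ± 0.41 on the log2 scale (SE, adjusted p = 4.52e-05 in edgeR's test) in the Y-positive and by 1.01 ± 0.38 (adjusted p = 0.0281) in the Y-negative libraries. The Y-negative call was lost without BN3, BN10, MN12, MN13 or MN15 and without MN12 and MN15 together. It was also lost with the length trend removed, where the value was 0.58 (adjusted p = 0.126 in edgeR's test). Hist1h4i rose by 1.21 ± 0.27 (adjusted p = 0.000569 in edgeR's test) in the Y-positive libraries, and in the Y-negative libraries its value was 0.13 ± 0.27 (adjusted p = 0.704). Hist1h2ai rose by 1.83 ± 0.47 and the H3 member Hist1h3h by 2.06 ± 0.53 in the Y-positive libraries (adjusted p = 0.00198 and 0.00199 in edgeR's test), and 92.0% of the windows of Hist1h3h are found in another gene. Hist1h3h had 0.300, 0.884, 0.526, 0.0687 and 0.948 CPM in MB8, MB11, MB17, MB19 and MB34 and 1.60, 3.50, 2.37, 3.99 and 1.45 CPM in MP6 to MP10, which did not overlap. The rise of Hist1h4c, 1.07 ± 0.46 with an adjusted p of 0.0491 in edgeR's test, was lost in 9 of 15 alternatives.

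Among the members with few culture reads, Hist1h2bk had 0.721, 0.364, 0.351, 0.0687 and 0.415 CPM in MB8, MB11, MB17, MB19 and MB34 and 1.71, 1.54, 3.44, 3.88 and 2.71 CPM in MP6 to MP10. Its groups did not overlap, and it rose by 2.62 ± 0.61 on the log2 scale (SE, adjusted p = 0.000827 in edgeR's test). Hist1h2bk, Hist1h2bm and Hist1h1b passed the filter on low reads through the tumors, where they are higher. Their values and p-values are therefore given as a description and not as support for a rise. Hist1h2bm had 36 reads over the 10 cultures and 206 over the 10 tumors. It rose by 2.58 ± 0.89 in the Y-positive and 2.23 ± 0.80 in the Y-negative libraries (adjusted p = 0.0155 and 0.0222 in edgeR's test), with MP6, at 0.0551 CPM, inside the range of the cultures; the first call was lost without MP8 and in limma-voom, the second without BN3, BN6 or MN15 and without MN12 and MN15 together. The H1 member Hist1h1b, with 48 and 204 reads, rose by 2.12 ± 0.72 and 1.70 ± 0.68 (adjusted p = 0.0145 and 0.0391 in edgeR's test), and with the length trend removed both calls were lost, at 1.65 (adjusted p = 0.053) and 1.46 (adjusted p = 0.075). The Y-negative call of Hist1h1b was lost in 10 of 17 alternatives in all, the Y-positive call in that 1 of 15.

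**Figure D4:**
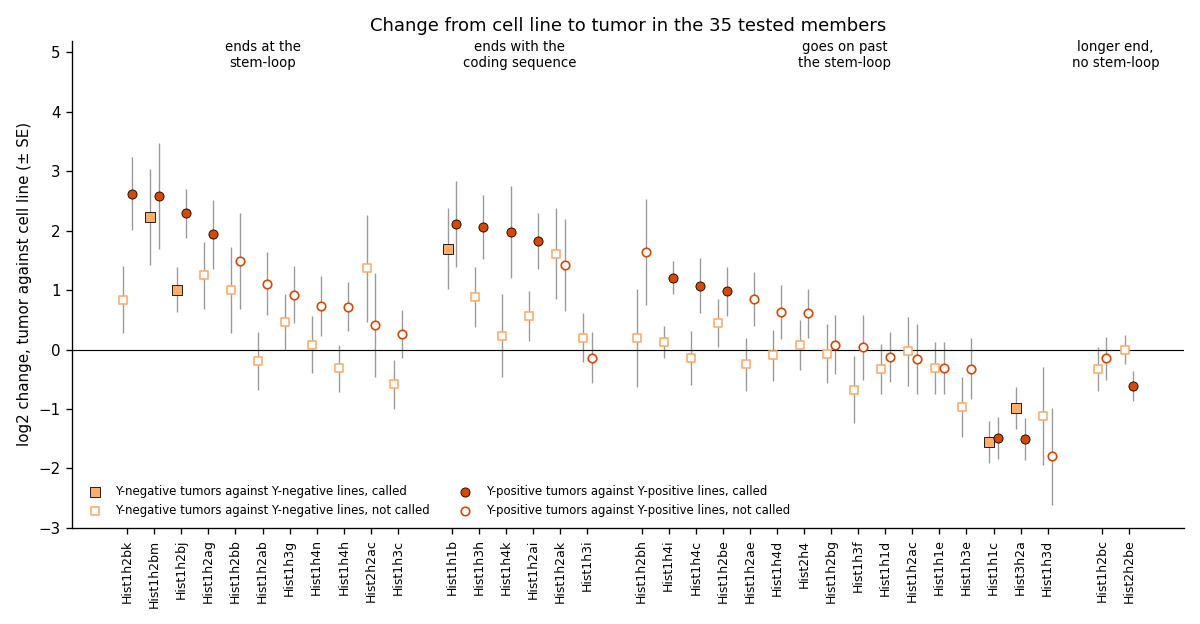
Log2 change from cell line to tumor (± SE) of the 35 tested members in the Y-negative libraries (squares) and the Y-positive libraries (circles), grouped by the end of the annotated transcript; filled symbols were called. The calls above 0 reach 2.29 for Hist1h2bj among members testable in the cultures alone and 2.62 for Hist1h2bk among the 6 that passed the filter through the tumors, and Hist1h1c and Hist3h2a are called below 0 in each genotype.

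The sums of CPM take in every listed member, with no further filter on reads. In the cultures 12 of the 20 stem-loop-ending members were listed, and 18 of the 21 that go on past the loop. The tumor sums therefore hold members that the culture sums lack. Stem-loop-ending members had 8.11 to 12.2 CPM in the Y-positive cultures and 19.3 to 38.7 CPM in the Y-positive tumors, with no overlap. In the Y-negative cultures they had 8.82 to 23.7 CPM and in the Y-negative tumors 14.2 to 31.9 CPM, which overlapped. Members that go on past the loop had 91.7 to 249 CPM in the Y-positive cultures and 76.2 to 118 CPM in the Y-positive tumors. Among the Y-negative libraries the corresponding ranges were 76.2 to 246 and 63.5 to 95.2 CPM. In the model of all libraries the slope on gene length was −0.208 in MP9 and −0.124 in MP8, against −0.026 to 0.075 in the Y-positive cultures. The other Y-positive tumors were within or near the range of the cultures, at 0.044 in MP6, −0.035 in MP7 and −0.033 in MP10. With the length trend removed in the Y-positive comparison, 8 members were called higher and 4 lower (22.9% and 11.4% of the 35, against 31.5% and 31.9% of all genes), and the median over the members was 0.32 in place of 0.73. In the Y-negative comparison the same step gave 1 called higher and 3 lower (2.86% and 8.57%, against 27.6% and 30.8% of all genes), and a median of −0.16 in place of 0.08. Without MN12 and MN15 the Y-negative comparison gave 3 called lower of 38 (7.89%), against 27.5% of all genes, and 0 called higher.

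Whether the genotype difference itself changed from culture to tumor was tested as an interaction. Of 35 members 0 were called in edgeR's test, against 4.56% of all genes. An unadjusted p under 0.05 was found for 3 (8.57%), against 22.7% of all genes, and DESeq2 called 0, against 9.24%. The median log2 difference of differences was −0.53 over the members and −0.07 over all genes, with 27 members negative and 8 positive. Hist1h4i had the smallest adjusted p, at −1.08 ± 0.38 (SE, adjusted p = 0.0917 in edgeR's test), and it was the 1 member of 38 called without MN12 and MN15, where 14% of all genes were called. The calls for tumor against culture in the Y-positive libraries, more numerous than those in the Y-negative libraries, are therefore not shown to differ between the genotypes at the level of any member.

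Genes that make and process histone mRNA were mixed, and Slbp changed most. Slbp, whose protein binds the stem-loop, had 23.2, 23.0, 19.6, 17.2 and 20 CPM in BN2, BN3, BN6, BN9 and BN10 and 15.7, 19.1, 17.6, 14.4 and 19.5 CPM in MB8, MB11, MB17, MB19 and MB34. It had 74.2, 66.9, 73.3, 61.0 and 70.8 CPM in MN11 to MN15 and 76.1, 98.2, 79.6, 81.0 and 88.3 CPM in MP6 to MP10, so that every tumor was above every culture. Slbp rose by 2.13 ± 0.14 on the log2 scale in the Y-positive and by 1.59 ± 0.14 in the Y-negative libraries (SE, adjusted p = 2.87e-11 and 2.63e-09 in edgeR's test). The genotypes were not called different for Slbp in culture (0.19 ± 0.15) or in tumors (−0.30 ± 0.12).

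Over the list of 14 transcription and processing genes, 3 rose and 5 fell in the Y-positive libraries and 2 rose and 5 fell in the Y-negative libraries. Cstf2, which encodes a cleavage factor shared with polyadenylation, rose in each, by 0.63 ± 0.14 and 0.45 ± 0.14. Eri1, a 3′ exonuclease that trims histone mRNA ends, fell by 0.34 ± 0.12 and 0.61 ± 0.12, and Lsm10, a protein of the U7 particle, by 0.46 ± 0.18 and 0.71 ± 0.18. Hinfp, a transcription factor for H4 genes, fell by 0.65 ± 0.15 and 0.44 ± 0.15. Npat, the S-phase coactivator of histone genes, was called in none of the comparisons. Between the genotypes edgeR called 0 of the 14 in culture and 0 in tumors, with 0 and 2 at an unadjusted p under 0.05 and 0 and 0 called by DESeq2. For all genes edgeR called 0.0321% and 2.45%, and DESeq2 3.79% and 9.19%. An unadjusted p under 0.05 was found for 16.9% and 22.7% of all genes in edgeR's test.

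Genes of DNA replication mostly rose. Of 24 S-phase genes 22 rose and 0 fell in the Y-positive libraries, with a median log2 change of 1.45, and 18 rose and 0 fell in the Y-negative libraries, with a median of 0.80. The shares of all genes called higher and lower were 31.7% and 30.1% in the Y-positive and 28.1% and 27.9% in the Y-negative libraries. In the interaction, 4 of the 24 were called with a genotype difference lower in tumors than in culture and 0 with a higher one, and all 24 values were negative, with a median of −0.58 against −0.07 over all genes. The interaction was called for 4.56% of all genes, in either direction. Among the 4 was Mcm7, a subunit of the replicative helicase, which rose by 1.90 ± 0.14 and 0.87 ± 0.13 and had an interaction of −1.03 ± 0.19 (adjusted p = 0.00586 in edgeR's test). Their summed level was 758 to 1520 CPM in the cultures and 2130 to 2960 CPM in the tumors. Of 12 mitosis genes 11 rose in the Y-positive and 10 in the Y-negative libraries, and of 12 histone chaperone genes 8 rose in each, with 1 falling in the Y-negative libraries. Asf1b, a chaperone that hands H3 and H4 to replicating DNA, rose by 1.82 ± 0.15 and 0.98 ± 0.14. Between the genotypes edgeR called 0 of the 24 S-phase genes in culture and 0 in tumors, with 10 and 4 at an unadjusted p under 0.05 and 4 and 1 called by DESeq2. For all genes edgeR called 0.0321% and 2.45%, and DESeq2 3.79% and 9.19%. An unadjusted p under 0.05 was found for 16.9% and 22.7% of all genes in edgeR's test.

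Histone variants that are made throughout the cell cycle from polyadenylated mRNA were mixed. Of 11 such genes 5 rose and 4 fell in the Y-positive and 4 rose and 4 fell in the Y-negative libraries. The shares of all genes called higher and lower were 31.7% and 30.1% in the Y-positive and 28.1% and 27.9% in the Y-negative libraries. H2afx, which encodes the variant phosphorylated at DNA breaks and whose mRNA can end at a stem-loop too, rose by 1.72 ± 0.19 and 0.99 ± 0.18. H3f3b, a gene for the replacement histone H3.3, fell by 1.77 ± 0.32 and 1.86 ± 0.32, from 1270 to 7250 CPM in the cultures to 1040 to 1480 CPM in the tumors. H2afj fell by 1.63 ± 0.28 and 1.75 ± 0.28. In BN9, where H3f3b was highest in any library, Hist1h1c stood at 105 CPM, and in BN10, where H3f3b was lowest among the cultures, it stood at 211 CPM. These are single cultures, and a relation between the levels of these genes was not tested.

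**Figure D5:**
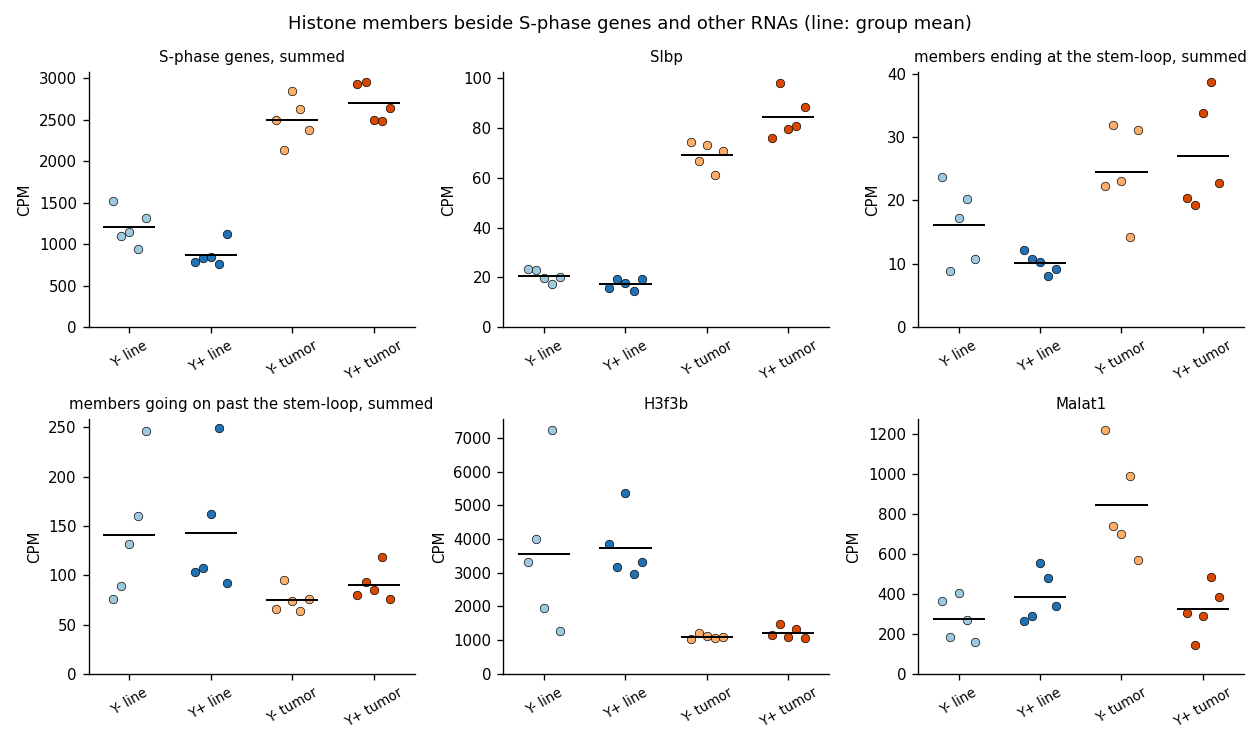
CPM per library (points, linear axes from 0) and group mean (line) of the summed S-phase genes, Slbp, the summed members of both stem-loop classes, H3f3b and Malat1. Slbp lies between 14.4 and 23.2 CPM in the cultures and between 61.0 and 98.2 CPM in the tumors, while members that go on past the stem-loop reach 249 CPM in the cultures and at most 118 CPM in the tumors.

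Other RNAs that lack a usual poly(A) tail, in the case of Neat1 only in some of its forms, were read beside the members. Counts per gene do not separate such forms. Malat1, a nuclear RNA whose end is a triple helix, had 160 to 556 CPM in the cultures, 569 to 1220 CPM in the Y-negative tumors and 146 to 485 CPM in the Y-positive tumors. It was called higher in Y-negative than in Y-positive tumors, by 1.36 ± 0.28 on the log2 scale (SE, adjusted p = 0.0271 in edgeR's test), and so was Neat1, by 1.24 ± 0.25. Rn7sk, a small nuclear RNA, had 3.38 to 78.2 CPM in the cultures and 6.25 to 28.5 CPM in the tumors. Reads of ribosomal RNA genes ran from 1440 CPM in MB34 to 16100 CPM in MB19 in the cultures and from 1270 to 2540 CPM in the tumors, and small nucleolar RNAs from 10.3 to 21.0 CPM and from 26.6 to 69.6 CPM. MB19 had the highest Hist1h1c of all libraries, whereas BN2, with the next highest ribosomal level of 11300 CPM, had the lowest Hist1h1c of the cultures. The part of such RNA capture in the histone values was not tested.

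Summed markers of host immune, fibroblast, endothelial and red blood cells were higher in every tumor than in every culture. Fewer of them were listed in the cultures. Of the 13 immune markers 6 were listed in the cultures, where they summed to 33.3 to 182 CPM, nearly all from Cd68, and Ptprc, the pan-leukocyte gene, had at most 1.2 CPM; in the tumors the 13 summed to 938 to 1980 CPM. The 8 fibroblast markers summed to 700 to 2060 CPM in the tumors, the 6 endothelial markers to 57.8 to 124 CPM and the 5 red cell markers to 420 to 2670 CPM, highest in MN15 and next in MN12. In the cultures 4, 3 and 3 of these were listed, and they summed to 14.5 to 49.1, 0.623 to 2.66 and 0 to 12.4 CPM. The fibroblast marker Pdgfra alone did not separate them, with 45.1 CPM in BN9 and 11.2 to 28.8 CPM in the tumors. Skeletal muscle markers reached 2310 CPM in MP9, the tumor with the highest stem-loop-ending sum, against 6.72 to 612 CPM in the other tumors. The muscle markers listed in the cultures summed to 2.49 to 13.4 CPM there. MP6, at 6.72 CPM, and MN11, at 10.9 CPM, lay within that range. The 2 listed keratinocyte and 5 listed germ cell markers each summed to 1.08 CPM or less in every tumor. Host cells express histone genes as well, and their part in the tumor values was not tested.

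Many members could not be told apart by sequence alone. In 22 of the 57 more than 50% of the 100-base windows of the transcript also occur in another gene, and 4 had no shared window. Among the members shown library by library, the lowest shares were 0% for Hist2h2be and Hist1h1b, 5.07% for Hist1h1c, 6.59% for Hist1h2bm, 14% for Hist1h4c and 15.1% for Hist1h4i, so most of the sequence of these 6 is their own, whereas Hist1h2bj had 40.1% and Hist1h2bk 70.8%. In addition 4 members overlap a gene on the same strand and 15 a gene on the other strand, and how the counting treated strand and repeated sequence is not given in the sources used here.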

How the data were processed

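Gene-level read counts of 20 libraries were used as the authors deposited them, 1 table per library, in the column of raw read counts per gene; the deposited counts are whole numbers. Per the submitters' processing notes STAR 2.7.0d and RSEM 1.3.1 were used with build mm10, beside FastQC 0.11.5, MultiQC 1.8 and cutadapt 2.3; how each was set, and how reads that fit several genes were counted, is not given in the sources used here. Names altered by a spreadsheet (25) were replaced by gene identifier, and 1 column naming another sample was not used. The members' 3′ ends were read from GENCODE vM21 (GRCm38).

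CPM divides a count by its library's total. Tests were edgeR 4.0.16 quasi-likelihood F-tests (R 4.3.3, TMM scaling, genes kept by filterByExpr with a minimum count of 10 and a minimum total of 15), with Benjamini-Hochberg adjustment over all genes tested and calls made where the adjusted p was below 0.05. For the genotype comparisons the 10 cultures and the 10 tumors had separate models. All 20 libraries, over the genes in both kinds of table, were fitted together for tumor against cell line and for the interaction. The fits were tested on simulated counts. Changes of 4-fold were recovered in 97% of changed genes in the cell lines, 99% in the tumors and 100% in Y-negative tumors against cell lines. For changes of 2-fold these shares were 49%, 38% and 50%. The changed genes were drawn above a read count that most members do not reach, so recovery at the level of those members was not measured. Alternatives were DESeq2 1.42.0, limma-voom (limma 3.58.1), DESeq2 size factors, no filter, removal of the trend of log2 CPM on gene length, each library left out, and 2 subsets of the Y-negative tumors.

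Values are printed for the 2 most abundant members of each family and up to 3 called members per direction and comparison; Hist1h2ai, Hist1h3i, Hist1h2ag, Hist1h2be and Hist1h4k were named after their values were seen. The members and all gene lists were chosen with earlier results of these data known.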

Additional observations from a re-analysis of the deposited data

Results flagged for a closer look

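In 76 groups of 5 libraries (the 14 members shown library by library, the summed members and the sums by annotated end), 4 values lay far from the other 4 libraries of their group, where chance alone would flag about 1 group in 20. Hist1h2bc had 46.7 CPM in BN10, a Y-negative culture, against 11.5 to 13.5 CPM in the other Y-negative cultures. Hist1h2bm had 0.813 CPM in BN2, a Y-negative culture, against 0 to 0.208 CPM in the others. Hist1h1c had 55.8 CPM in MP9, a Y-positive tumor, against 40.7 to 42.3 CPM in the others. The H2B members with a longer annotated end and no stem-loop summed to 30.6 CPM in MP7, a Y-positive tumor, against 44.4 to 48.1 CPM in the others.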

How the results depend on the processing

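Of 136 recomputed counts and sums 129 stayed within 1.5 times the count or within the spread between libraries. The log2 ratio of the summed members between Y-negative and Y-positive cultures, −0.03, was −0.26 to 0.22 with 1 library left out, so it has no stable sign; the other 3 ratios of sums stayed negative. In the cultures DESeq2 called 1 member, Hist1h2ai, where edgeR called 0, and over all genes it called 472 against 4. Without MN12 and MN15, 3 members were called lower in Y-negative than in Y-positive tumors (7.69% of the 39 tested, against 12.2% of all genes, with 3630 genes called in all against 362 before), 3 were called in Y-negative tumors against cultures (all lower: Hist1h1c, Hist1h2bn and Hist1h3c) in place of 5, and 1 was called by interaction. Leaving out 1 library at a time gave 2 to 6 calls in the Y-negative and 11 to 15 in the Y-positive tumors against cultures, and 0 in the other comparisons. Of 295 recomputed values of single called members 57 lost the call and 0 changed direction; Hist1h1c kept its call in all 17 and 15 alternatives of the 2 genotypes. The cause of these changes was not tested. No paired analysis was possible because the groups share no replicate numbers. Depth limits the rest: 26 of 41 members averaged under 1 CPM in the cultures.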

Other observations

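Beyond the histone genes, 12307 other genes averaging 1 CPM or more were ranked by Pearson's correlation of log2(CPM + 0.5) with the summed members over the 20 libraries, as a description only, since the points share library depth and fall into cultures and tumors. The 5 highest were Gm34934 (0.79), Cdc42ep3 (0.79), Ubald2 (0.75), Flot1 (0.75) and Naxe (0.74). Within the 10 cultures alone these genes had correlations of 0.84, 0.75, 0.64, 0.68 and 0.72 in the same order, and within the 10 tumors 0.43, 0.77, 0.91, 0.80 and 0.78.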
